A study of Mus musculus with 2 samples.

Results

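DNase-seq marks stretches of DNA that are open to the nuclease DNase I, and the regions described here are strong open sites away from gene starts that were called in one of the libraries of newborn mouse midbrain and not in the other. They were chosen from the peak list of replicate 1 by 4 criteria. The authors' deposited signal of the peak was 73 or more, the peak midpoint lay over 500 bp from every transcription start site (TSS) of the GENCODE M21 annotation, the peak lay on an autosome, and it shared not 1 bp with any peak or hotspot (a wider enriched interval) of replicate 2. These criteria gave 5885 peaks. They were 20.6% of the 28624 strong distal autosomal peaks of replicate 1 (95% Wilson interval 20.1 to 21), and came from 187596 distal and 228203 peaks used in all. The comparison set was the 22173 strong distal peaks that overlapped a replicate 2 peak, called shared below. Another 566 touched a replicate 2 hotspot but no peak and entered neither set.

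The samples form 1 group: midbrain of healthy mice of the strain B6NCrl on the day of birth, males and females pooled, with 2 biological replicates. Both biosamples trace to a single pooled donor entry, and the protocol named for the nuclei includes a crosslinking step. Replicate 1 had 228203 peaks used and replicate 2 had 122593, with median deposited signals of 44 and 18. What the signal counts was not given in the sources used here. Its values were not scaled between the libraries, and the number of reads is unknown. With 1 library on each side, a difference between the libraries in depth or quality cannot be told apart from a difference in the tissue, so no test between the libraries was made. All intervals below are over regions, cover counting error only, and treat neighbouring regions as if they were independent.

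Distal open sites are mostly enhancers, which bind transcription factors and act on promoters at a distance, and insulator sites. Several factor families that work in the developing brain leave recognisable letters in such sites. Basic helix-loop-helix factors bind E-boxes (CANNTG), with Neurod and Atoh proteins favouring CAGATG and Ptf1a favouring CAGCTG. Nuclear factor I (NFI) proteins, which drive late steps of neuronal and glial maturation, bind TTGGCA and its palindrome, and Meis proteins, homeodomain partners of Hox and Pbx, bind CTGTCA. CTCF, the insulator and loop-anchor protein, binds a long motif that is open in nearly every cell type. In a midbrain dissection the adjoining tissue includes the isthmus and the rostral cerebellum, whose granule cells arise from the rhombic lip and depend on Atoh1, Zic, Pax6, Meis1 and NFI factors.

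The sequences below are examples and do not show the full range of these peaks. Each carries a CAGATG or CAGCTG E-box, as did 50.9% of the peaks of replicate 1 alone, while 27.4% held none of the motifs marked below and no CTCF motif. Left out, among others, were the strongest peaks at Igsf21 and Cdh13 (1 Meis match each) and in the third largest group (0 matches). The strongest peak of replicate 1 alone with a CAGCTG match (Tox3) and with an NFI match (Foxo6) is given, then the strongest peak at 3 of the genes nearest to the most such peaks (Gse1, Auts2, Ebf3), then the strongest peak in each of the 2 largest groups of such peaks (Clybl, Polg). Each is the forward strand of mm10, 5′ to 3′, named by the nearest protein-coding TSS. Capitals mark matches to the CAGATG E-box, the CAGCTG E-box, the NFI half-site TTGGCA and the Meis motif CTGTCA. Read on the other strand, CATCTG is a match to the first of these, TGCCAA to the NFI half-site and TGACAG to the Meis motif.

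Tox3, intergenic, chr8:90244836-90244985, signal 123: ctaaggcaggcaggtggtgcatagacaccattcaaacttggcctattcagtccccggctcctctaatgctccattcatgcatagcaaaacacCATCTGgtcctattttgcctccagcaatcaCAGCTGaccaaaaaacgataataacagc
Foxo6, intergenic, chr4:120249116-120249265, signal 121: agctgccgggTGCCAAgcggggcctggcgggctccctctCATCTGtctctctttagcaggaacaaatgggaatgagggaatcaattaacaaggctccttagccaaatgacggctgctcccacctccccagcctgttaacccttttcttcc
Gse1, intron, chr8:120309416-120309565, signal 107: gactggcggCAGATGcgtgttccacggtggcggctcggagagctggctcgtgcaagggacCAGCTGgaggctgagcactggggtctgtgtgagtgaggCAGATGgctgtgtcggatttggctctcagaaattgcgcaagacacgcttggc
Auts2, intron, chr5:131650536-131650685, signal 114: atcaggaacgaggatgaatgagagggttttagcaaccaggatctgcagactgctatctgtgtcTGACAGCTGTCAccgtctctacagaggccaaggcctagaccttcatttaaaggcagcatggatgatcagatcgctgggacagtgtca
Ebf3, intron, chr7:137253336-137253485, signal 113: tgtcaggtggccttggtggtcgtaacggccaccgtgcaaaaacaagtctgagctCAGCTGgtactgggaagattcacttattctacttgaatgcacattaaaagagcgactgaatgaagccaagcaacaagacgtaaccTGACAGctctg
Clybl, intron, chr14:122338916-122339065, signal 97: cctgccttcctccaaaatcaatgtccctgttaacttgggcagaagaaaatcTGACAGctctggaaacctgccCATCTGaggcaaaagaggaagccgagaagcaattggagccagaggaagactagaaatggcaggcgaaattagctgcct
Polg, intron, chr7:79525956-79526105, signal 107: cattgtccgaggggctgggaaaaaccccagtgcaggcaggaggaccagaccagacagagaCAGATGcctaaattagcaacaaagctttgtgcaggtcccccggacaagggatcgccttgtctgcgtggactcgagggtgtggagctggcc

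The Auts2 peak carries a CAGCTG E-box flanked on both sides by a Meis match, the 3 matches running into each other. The Gse1 peak carries 2 CAGATG E-boxes and 1 CAGCTG E-box. The Tox3 peak holds both kinds of E-box, and the Foxo6 peak a CAGATG E-box beside an NFI half-site. A match is a description of the letters and does not show that a factor was bound.

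The signal of these peaks was set in part by the rule and is given as a description. Their median deposited signal was 81 (quartiles 76 and 88, highest 129), and that of the shared peaks was 89. The share of strong distal peaks without a replicate 2 interval fell with the signal, from 32.9% (2620 of 7956) at a signal of 73 to 79, through 23.4% at 80 to 89, 14.7% at 90 to 99 and 8.06% at 100 to under 110, to 2.46% (61 of 2484) at 110 or more. At the threshold itself nothing steps: 448 of 1257 distal peaks with a signal of 73 and 444 of 1236 with a signal of 72 lacked a replicate 2 interval. Just inside were peaks at Prex2, Ogfrl1 and Lgsn, and just outside were peaks at Crisp4, Tram2 and Adgrb3. Every one of the 5885 peaks lay in a replicate 1 hotspot, 95.6% of them in a hotspot of the strongest deposited class (−log10 q of 100), against 98.9% of the shared peaks.

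**Figure D1:**
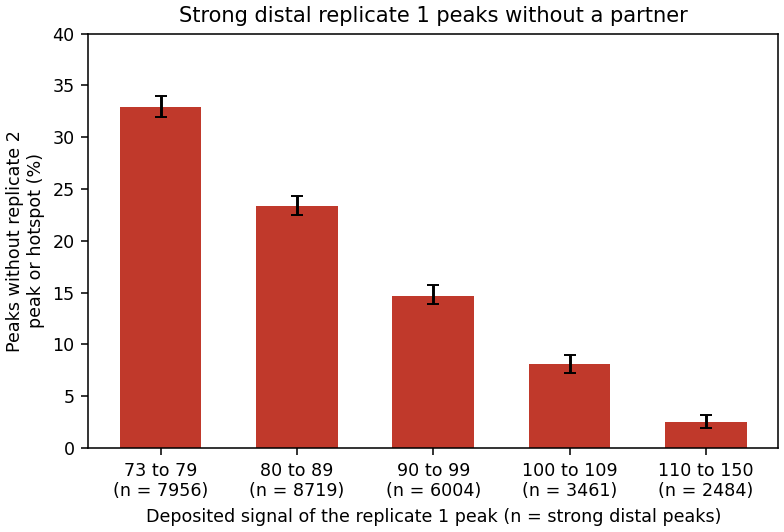
Percent of strong distal replicate 1 peaks with no overlapping peak or hotspot of replicate 2 (vertical axis) by class of deposited signal (horizontal axis, number of peaks in brackets); bars are shares and whiskers 95% Wilson intervals. The share falls from 32.9% in the lowest class to 2.46% in the highest.

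Most of the peaks lay well away from any replicate 2 call. The median distance to the nearest replicate 2 peak was 6551 bp (quartiles 1851 and 16771). Of the 5885 peaks, 1052 (17.9%) had a replicate 2 peak or hotspot within 1000 bp, and 2273 (38.6%) had none within 10000 bp. They were spread over all 19 autosomes, with a share between 17.6% (chromosomes 6 and 15) and 23.1% (chromosome 16) of the strong distal peaks of each.

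The 10 peaks with the highest signal lay nearest to the starts of Map1b (signal 129), Tox3 (123), Zic4 (122), Foxo6 (121), Shisal1 (120), Galnt10 (119), Slc24a2 (118), Orc5 (118), Cdh13 (117) and Pip5k1b (117). Map1b encodes a microtubule-associated protein of growing axons, Zic4 a zinc finger factor of the dorsal neural tube and cerebellum, Slc24a2 a sodium, potassium and calcium exchanger of neurons, and Cdh13 a cadherin. The Map1b peak lay 46513 bp downstream of the nearest annotated Map1b TSS and beyond the end of the gene. It was inside an exon of another annotated transcript, with the nearest replicate 2 peak 21531 bp away. The Zic4 peak lay 6622 bp upstream of the Zic4 start, in a replicate 1 hotspot 3295 bp wide, with a replicate 2 peak 1471 bp away. Among these 10 peaks, those at Map1b, Tox3, Foxo6, Shisal1 and Slc24a2 carried a CAGATG E-box.

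Peaks of replicate 1 alone lay farther from gene starts than the shared peaks and more often in introns. Introns held 55.5% of them against 47.1% of the shared peaks, a difference of 8.32 percentage points (95% Newcombe interval 6.89 to 9.75). Intergenic sequence held 39.9% against 45.3%, a difference of -5.39 points (-6.8 to -3.97), and exons 4.6% against 7.54%, a difference of -2.93 points (-3.55 to -2.27). The median distance to any TSS was 14807 bp against 8928 bp, and to a protein-coding TSS 32774 bp against 16743 bp. Of the peaks of replicate 1 alone, 25.1% lay over 100000 bp from a protein-coding TSS, against 13.9% of the shared peaks, while 10.1% against 19.3% lay within 2000 bp of a TSS.

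Their DNA held fewer CpG dinucleotides. The mean was 2.69 ± 2.39 CpG per 150 bp peak (SD over 5885 peaks) against 3.81 ± 3.82 (SD over 22173). The difference of -1.12 was -0.72 with the shared peaks weighted to the same signal classes and -1.75 at a signal of 90 or more. The median ratio of observed to expected CpG was 0.22 against 0.283. G+C content hardly differed, with medians of 53.3% and 52.7%, and its mean differed by 0.141 points (-0.0318 to 0.314), a value that ran from -0.608 at a signal of 90 or more to 1.19 with the shared peaks weighted to the same signal classes. Repeat sequence was scarce in both sets: 28 of the 5885 peaks (0.476%) and 217 of the 22173 (0.979%) were soft-masked over 50% or more of their length.

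The 2 sets also differed in the motifs they held. CAGATG was present in 32% of the peaks of replicate 1 alone (1882 of 5885) and in 16.7% of the shared peaks (3706 of 22173), a difference of 15.3 points (95% Newcombe interval 14 to 16.6). The NFI half-site TTGGCA was present in 30.1% against 16.3%, a difference of 13.8 points (12.5 to 15). CAGCTG followed with 26.4% against 16.4% (9.97 points, 8.75 to 11.2), then the Meis motif CTGTCA with 21.4% against 13.2% (8.14 points, 7.01 to 9.29) and the homeodomain motif TAATTA, bound by Lhx, En and Hox proteins among others, with 5.86% against 3.26% (2.61 points, 1.99 to 3.27). The 5 at the other end were CTCF, SP/KLF, CAGGTG, RFX and RUNX. The CTCF motif was present in 34 peaks of replicate 1 alone (0.578%) and in 2930 shared peaks (13.2%), a difference of -12.6 points (-13.1 to -12.1). The SP/KLF motif GGGCGG, common at CpG-rich promoters, was present in 5.73% against 9.54% (-3.81 points), and that difference shrank to -1.94 points with the shared peaks weighted to the same signal classes and to -2.21 points over 2000 bp from any TSS. CAGGTG, the E-box of E proteins and Zeb factors, was present in 9.33% against 12% (-2.63 points). The same letters can form part of a CTCF match, and against shared peaks without a CTCF match, a comparison added after seeing the data, the difference was -0.8 points with an interval that held 0 (-1.64 to 0.0766). The long RFX motif was present in 0.289% against 1.74%, and the RUNX motif TGTGGTT in 2.48% against 3.22%. The RUNX difference of -0.744 points was -0.285 at a signal of 90 or more, with an interval that held 0 (-1.1 to 0.796). Of the 30 motifs searched, on both strands of the 150 bp peak, 10 had a difference whose interval lay above 0, 7 had one below 0 and 13 had one that held 0. Short motifs overlap in letters, so the differences are not independent of each other.

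The nearby sequence gives the level such short strings reach beside the peaks. Flanking windows that held another open site were not left out. In 150 bp windows centred 1000 bp to either side, CAGATG was present in 12.4% of windows beside peaks of replicate 1 alone and 11.7% beside shared peaks, and TTGGCA in 7.91% and 7.6%. For CAGCTG the flanking shares were 7.2% and 7.34%, for CTGTCA 11% and 10.5%, and for CTCF 0.153% and 0.18%. Over all 228203 replicate 1 peaks, CAGATG was present in 17.9%, TTGGCA in 17.1%, CAGCTG in 15.8%, CTGTCA in 14.9% and the CTCF motif in 3.01%. For these 5 motifs the flanks of both sets lay within 1 point of each other. The SP/KLF motif was different, at 2.66% in the flanks of the peaks of replicate 1 alone and 4.3% in those of the shared peaks. TAATTA was present in 5.68% of all replicate 1 peaks, near the 5.86% of the peaks of replicate 1 alone. Its flanking shares were 3.94% and 3.84%, so the shared peaks, at 3.26%, lay below their own flanks.

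**Figure D2:**
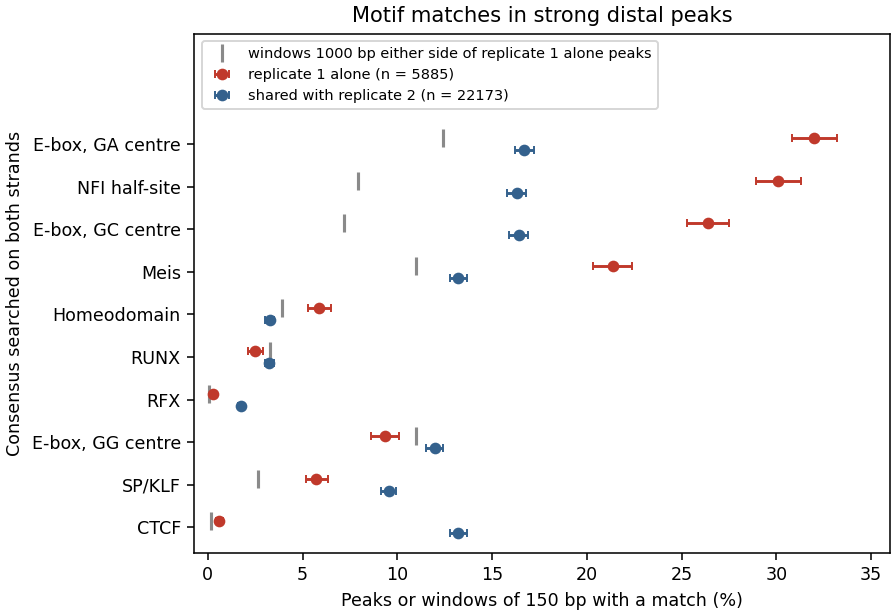
Percent of 150 bp peaks or windows with a match (horizontal axis) for the 5 motifs with the highest and the 5 with the lowest difference (vertical axis; GA, GC and GG centre name the letters in the middle of the E-box). Red points are the 5885 peaks of replicate 1 alone and blue points the 22173 shared peaks, with 95% Wilson intervals; grey ticks are flanking windows of the red peaks, and the CTCF points lie at 0.578% and 13.2%.

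Matches were concentrated at the middle of the peak. In bins of 20 bp, CAGATG was present in 6.3% of the peaks of replicate 1 alone at the midpoint and in 1.51% at 500 bp from it, against 2.86% and 1.61% of the shared peaks. TTGGCA was present in 5.52% at the midpoint against 2.57% of the shared peaks. The CTCF motif, at 3.5% in the central bin of the shared peaks, was at 0.119% in that bin of the peaks of replicate 1 alone.

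**Figure D3:**
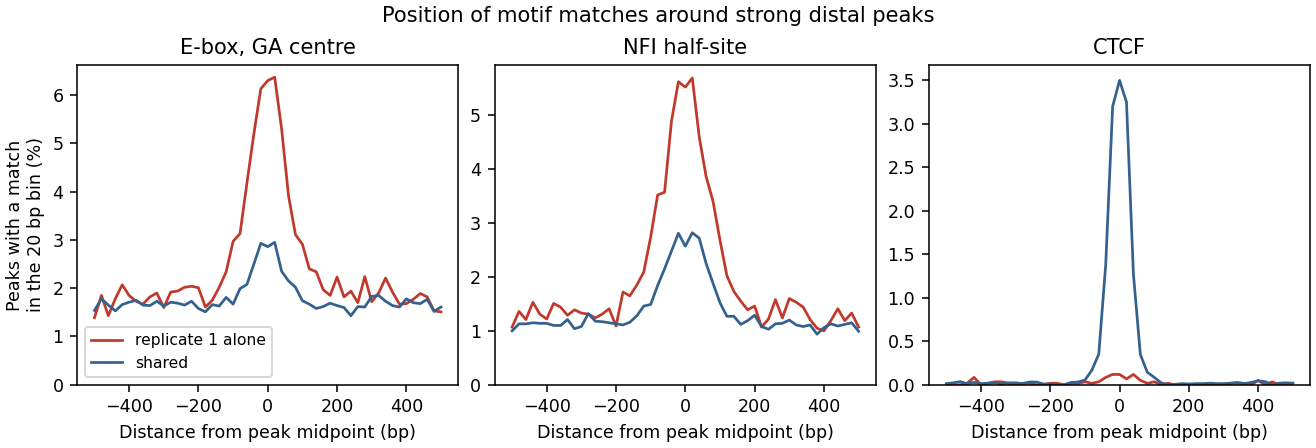
Percent of peaks with a motif match in each 20 bp bin (vertical axis) by distance from the peak midpoint in bp (horizontal axis), for the CAGATG E-box (GA centre), the NFI half-site and CTCF; red lines are peaks of replicate 1 alone and blue lines shared peaks. The red lines stand higher at the centre for the E-box (6.3% against 2.86%) and the NFI half-site, and the blue line for CTCF (3.5% against 0.119%).

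Most of these peaks held at least 1 of the leading motifs. Such short strings are also frequent in the flanking windows, where the share with at least 1 of them was not computed. At least 1 of the CAGATG and CAGCTG E-boxes, the NFI half-site and the Meis motif was present in 72.4% of the peaks of replicate 1 alone and in 48% of the shared peaks, and either E-box in 50.9% against 30.3%. The NFI half-site was about as frequent beside the E-box as elsewhere: TTGGCA was present in 28.8% of the peaks of replicate 1 alone with CAGATG and in 30.7% of those without it. Repeated matches were more frequent, with 2 or more CAGATG in 5.73% against 1.69% and 2 or more TTGGCA in 4.45% against 1.88%.

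The letters around the E-box also differed, in a comparison chosen after the values were seen. The form ACAGATGG made up 20.7% of all CAGATG matches in the peaks of replicate 1 alone and was present in 7.65% of these peaks, against 10.1% of the matches and 1.82% of the peaks in the shared set. Composites of a Meis match running into an E-box were rare in both sets: TGACAGATG was present in 1.84% against 0.347% and TGACAGCTG in 1.75% against 0.64%. Meis matches that shared no letter with an E-box were present in 17.7% against 12.1%.

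The CAGATG share was higher in the stronger peaks of replicate 1 alone, at 29.6%, 32.3%, 36%, 37.3% and 41% from the lowest to the highest of the 5 signal classes, while in the shared peaks it lay between 15.8% and 17.9%. The highest class is small, and its 41% was 25 of 61 peaks (95% Wilson interval 29.5 to 53.5). The NFI half-site followed the same order over the first 4 classes, at 29.5%, 30.4%, 31.2% and 33.7%. It departed from it in the last, with a signal of 110 or more. There 8 of the 61 peaks had it (13.1%, 95% Wilson interval 6.8 to 23.8), as did 16.5% of the shared peaks. The CTCF motif was present in 0.878% of the peaks in the lowest class and in 2 of 61 in the highest.

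Peaks outside the rule were compared after the values were seen. Distal replicate 1 peaks with a signal of 60 to 72 and no replicate 2 interval carried CAGATG in 27.3%, TTGGCA in 26.8% and the CTCF motif in 1.22%, against 15.9%, 13.5% and 10.9% of shared peaks of that signal. On chromosome X, which the rule leaves out, 13 of 41 peaks that met its other criteria carried CAGATG, against 34 of 243 shared peaks. Distal peaks of replicate 2 without a replicate 1 interval, whose median deposited signal was 9, carried CAGATG in 11.5% and TTGGCA in 8.14%, close to the flanking windows, and the CTCF motif in 0.214%. The 566 strong peaks that touched only a replicate 2 hotspot carried CAGATG in 16.1% and the SP/KLF motif in 17.7%.

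Many genes had a few such peaks. The 5885 peaks had 3196 nearest protein-coding genes, of which 1924 had 1 such peak and 195 had 5 or more. Auts2, a chromatin regulator of neuronal development, had 19 among its 42 strong distal peaks, and Gse1, a subunit of a histone deacetylase complex, had 17 of 49. Ebf3, a helix-loop-helix factor of differentiating neurons, had 12 of 16, with signals of 73 to 113. Igsf21, a synaptic adhesion protein, had 11 of 18 and Cdh13 had 11 of 19. Next came Lsamp, a neuronal adhesion protein, with 10 of 21, Klhl29 with 10 of 15, Meis1 with 10 of 16, the RNA-binding protein gene Msi2 with 10 of 23 and Zfp608 with 10 of 48. Zmiz1, Gm5089, Nav2, Nbea and Rbfox1 also had 10 each, with a lower summed signal, which decided the order of ties. All of the first 10 exceed the overall 20.6%, Zfp608 (20.8%) by the least, but genes with many such peaks were picked on the same contrast and nothing was tested. Among the 1807 genes with 5 or more strong distal peaks, 2 had no other kind: Sgcd, a sarcoglycan gene (6 of 6), and Fndc3b (5 of 5). These 2 were named after their values were seen.

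The promoters of the nearest genes were mostly open in both libraries. A replicate 1 promoter peak was present at 88.1% of the 3196 genes and a replicate 2 promoter peak at 80.2%, against 83.9% and 76.7% of the 8885 genes nearest to shared peaks and 69.8% and 63.4% of all 20780 protein-coding genes. The sets share 2680 genes. Among the 516 genes nearest to peaks of replicate 1 alone and to no shared peak, 83.5% and 71.9% had a promoter peak in replicate 1 and replicate 2, against 81.7% and 74.5% of the 6205 nearest to shared peaks only. At Auts2 the deposited promoter signals were 126 in replicate 1 and 59 in replicate 2, at Ebf3 120 and 45, and at Meis1 135 and 37. Those genes thus had a called promoter peak in replicate 2 although many of their distal peaks in replicate 1 had no counterpart.

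Of 17 gene lists for cell types and brain regions, the list of cerebellar granule cell and rhombic lip genes had the highest share. Among the strong distal peaks nearest to its 20 genes, 45 of 107 (42.1%, 95% Wilson interval 33.1 to 51.5) lacked a replicate 2 interval, against the 20.6% of all strong distal peaks. The lists were chosen with earlier results of these data known and the counts use the same contrast as the rule, so they are descriptions. The share moved with the threshold, to 56.5% at a signal of 60 or more, where all distal peaks stood at 31.6%, and to 20% at 90 or more, where all stood at 10.3%.

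Within that list the peaks came from 13 of the 20 genes. Meis1, a homeodomain factor of granule cell precursors, had 10 of 16, with signals of 73 to 101. Mycn, which drives precursor proliferation, had 8 of 21. Zic4 had 7 of 14 and Pax6, required for granule cell migration, had 5 of 7, with 1 shared peak and signals of 82 to 94. Reln, encoding the secreted guide of neuronal migration, had 4 of 9, Barhl2 had 3 of 5 and Cbln1, a synapse organiser of granule cells, had 2 of 6. Atoh1, the proneural factor that founds the lineage, had 1, as did Zic1, Zic5, Neurod1, Etv1 and Nhlh1. The other 7 genes had none: Lmx1a had 0 of 7 strong distal peaks, the NFI gene Nfix 0 of 6, Barhl1 0 of 2, Cbln3 0 of 2, Zic2 0 of 1 and Eomes 0 of 1. Gabra6, a receptor subunit of mature granule cells, had no strong distal peak. The Atoh1 peak, with a signal of 74, lay 1254 bp upstream of the gene start. Assignment to the nearest start also took in remote peaks, up to 430751 bp from Meis1 and 329525 bp from Mycn. Within 50000 bp of the gene, 4 of 9 strong distal peaks at Meis1 and 1 of 4 at Mycn lacked a replicate 2 interval. All 20 genes had a promoter peak in replicate 1 and 14 had one in replicate 2. The promoter of Zic1 had deposited signals of 136 and 45, that of Atoh1 89 and 17, and that of Etv1 111 in replicate 1 with no peak in replicate 2. Of the 20 genes only Lmx1a stands in another list.

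**Figure D4:**
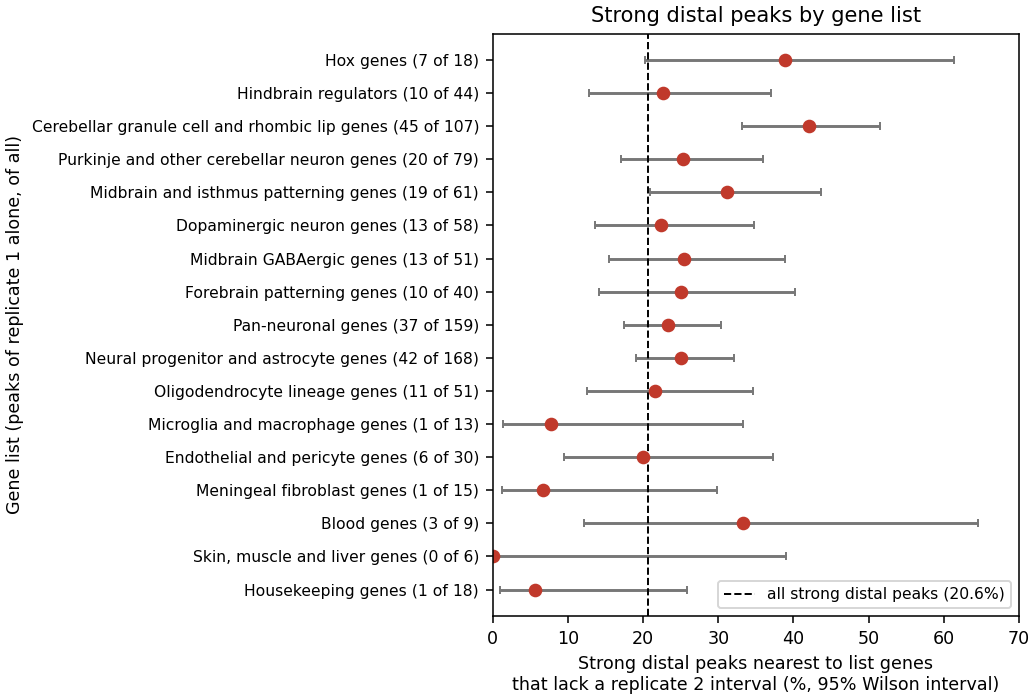
Percent of strong distal replicate 1 peaks nearest to the genes of each list that lack a replicate 2 interval (horizontal axis) for 17 gene lists (vertical axis, counts in brackets); points are shares, whiskers 95% Wilson intervals, and the dashed line the 20.6% of all strong distal peaks. The granule cell and rhombic lip list stands at 42.1% and the midbrain and isthmus list at 31.1%. The shares use the same contrast as the rule, so the position of an interval relative to the line is no test.

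Hox genes, which pattern the hindbrain and spinal cord and are silent in the midbrain, came next, at 7 of 18 peaks (38.9%, 95% Wilson interval 20.3 to 61.4). The peaks were at Hoxa2 with 2 and at Hoxa4, Hoxb5, Hoxb7, Hoxd3 and Hoxd12 with 1 each. Only those at Hoxa4 and Hoxd12 lay in a replicate 1 hotspot of the strongest class, as did 95.6% of all peaks of replicate 1 alone. The others lay in weak hotspots, with −log10 q values from 1.94 at Hoxa2 to 4.89 at Hoxb5. Of the 39 Hox genes, 25 had a promoter peak in replicate 1 and 5 in replicate 2. Hoxa2 had a promoter signal of 96 and Hoxa5 of 102 in replicate 1, each with no promoter peak in replicate 2. Hox promoters called in replicate 2 included Hoxa7 (signal 44) and Hoxb5 (38). Farther than 2000 bp from any TSS the Hox share was 11.1%.

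Midbrain and isthmus patterning genes had 19 of 61 (31.1%, 95% Wilson interval 20.9 to 43.6), beside 20.6% of all strong distal peaks, led by Pax3, Pax5 and Meis2 with 4 each. The midbrain GABAergic list had 13 of 51 (25.5%), led by Lhx1 with 4 of 6, and the dopaminergic list 13 of 58 (22.4%), led by En1 with 3 of 6. En1 stands in the patterning list too, and with gene bodies and 50000 bp on each side in place of the nearest start the dopaminergic share was 12.3%. Th, the enzyme gene that defines dopaminergic neurons, had 1, with a signal of 102, 14709 bp downstream of the start in the nearest-gene assignment. Purkinje and other cerebellar neuron genes had 20 of 79 (25.3%), led by Bcl11a with 5 of 8. Gad1, Lhx1 and Lhx5 stand in both this list and the midbrain GABAergic list, where Lhx1 had 4 of 6 and Lhx5 had 2 of 6. At a signal of 60 or more the Purkinje list stood at 46.8% (39.2 to 54.6), against 31.6% of all distal peaks, and at 90 or more at 6.25% (1.11 to 28.3), against 10.3%. There were 10 such peaks among 44 (22.7%) for hindbrain regulators, led by Gbx2 and Irx3 with 3 each. Forebrain patterning genes had 10 of 40 (25%), led by Bcl11b with 4 of 14.

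Broad neuronal and glial genes gave much the same share. Pan-neuronal genes had 37 of 159 (23.3%), led by Myt1l with 9 of 36, and neural progenitor and astrocyte genes had 42 of 168 (25%), led by Nfib with 7 of 32, Notch1 with 6 of 15 and Sox9 with 5 of 22. Oligodendrocyte lineage genes had 11 of 51 (21.6%), led by Sox8 with 3 of 5. Endothelial and pericyte genes had 6 of 30 (20%). Counts were small for microglia (1 of 13, at C1qa), meningeal fibroblasts (1 of 15, at Col1a2), housekeeping genes (1 of 18, at Tfrc) and skin, muscle and liver genes (0 of 6). The blood list had 3 of 9, all nearest to Ptprc. Its defining genes Hba-a1, Hba-a2 and Hbb-bs had no strong distal peak.

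Summed promoter signals were lower in replicate 2 for every list, by unlike amounts. They were not scaled between the libraries, whose median deposited signals over all peaks were 44 and 18, so a lower sum in replicate 2 is no result about a list. The deposited promoter signals of the granule list summed to 1964 in replicate 1 and 487 in replicate 2, and those of the Hox list to 1649 and 138. The dopaminergic list summed to 1001 and 254, the midbrain and isthmus list to 902 and 252, and the midbrain GABAergic list to 959 and 368. The forebrain list summed to 588 and 231. For the pan-neuronal list, with promoter peaks at 20 of 20 genes in both libraries, they summed to 2258 and 1071, and for the housekeeping list to 1845 and 952. The part of dissection, cell composition or depth in the peaks described here was not tested.

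The share of peaks in groups depends on how many peaks a set has, so the 2 sets cannot be ranked on it. When midpoints within 20000 bp were joined, 31.6% of them lay in groups of 2 or more (773 groups), against 55.4% of the shared peaks, which are more numerous. The largest group had 9 peaks with signals of 73 to 107 at chr7:79493996-79526505 (32.5 kb), a stretch that holds the microRNA gene Mir9-3 and its host transcript and whose nearest protein-coding TSS is that of Polg. It held 46 replicate 1 and 23 replicate 2 peaks in all, and 5 shared strong peaks. The second had 8 peaks with signals of 75 to 97 at chr14:122338916-122388945 (50 kb) in Clybl and Gm5089, on the side facing Zic5 and Zic2. It held 33 replicate 1 peaks and 1 replicate 2 peak, with no shared strong peak. The third had 7 peaks at chr3:88191356-88239205, a stretch that holds Mir9-1, with 46 replicate 1 and 21 replicate 2 peaks. The fourth and the fifth had 7 peaks each, at Cxxc5 and inside Gse1.

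**Figure D5:**
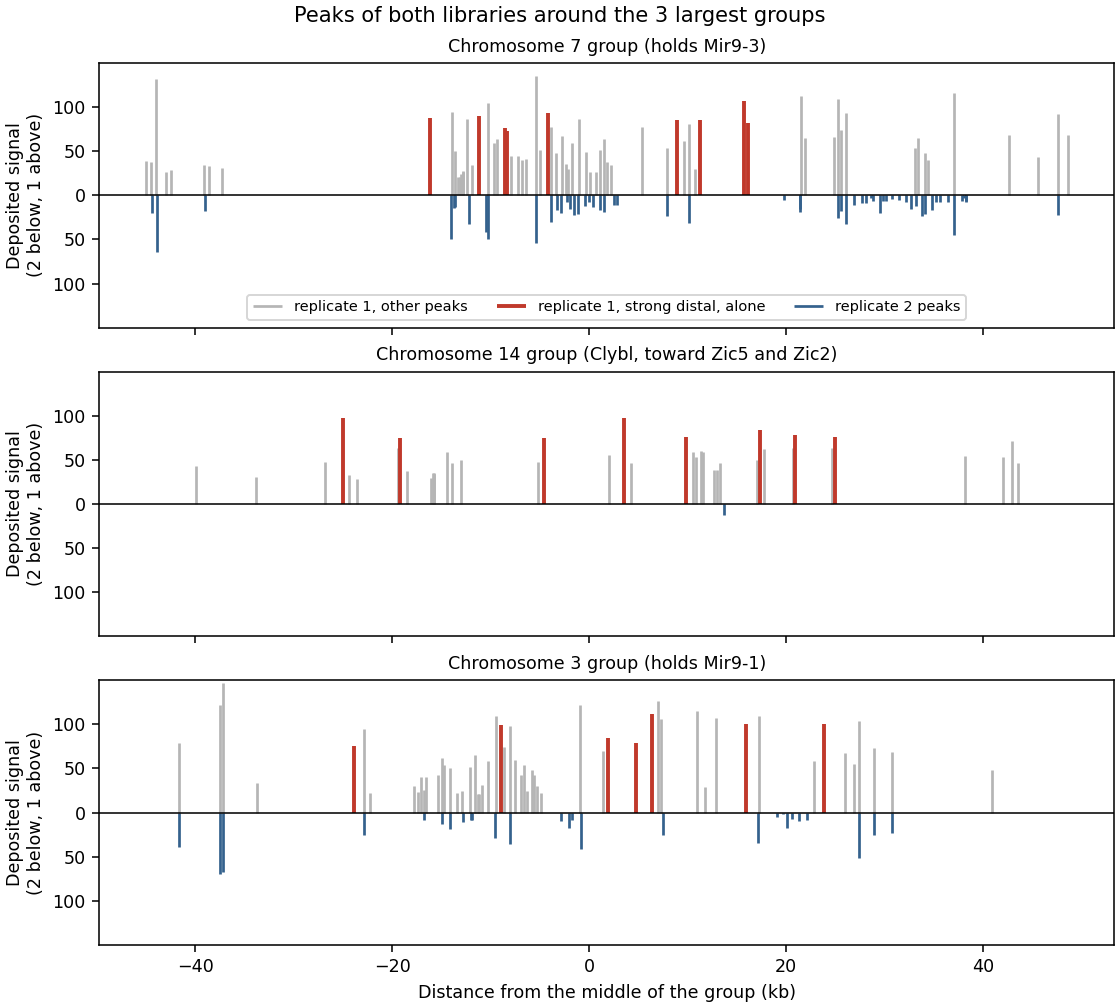
Deposited signal of every peak within 50000 bp of the middle of the 3 largest groups (vertical axis, replicate 1 upward and replicate 2 downward, not scaled between libraries) by distance from the middle in kb (horizontal axis). Red lines are strong distal peaks of replicate 1 alone, grey lines other replicate 1 peaks and blue lines replicate 2 peaks; the chromosome 14 window holds 40 replicate 1 peaks and 1 replicate 2 peak, while replicate 2 has 57 and 27 peaks in the other windows.

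The 3 mouse genes for miR-9, a microRNA of neural progenitors and neurons, differed in this respect, in a look prompted by the groups above. Within 50000 bp of Mir9-3, 9 of 17 strong distal peaks lacked a replicate 2 interval, and within 50000 bp of Mir9-1, 7 of 13. Around Mir9-2 it was 0 of 16, and 14 of those were shared. Within 50000 bp of Zic4, 6 of 10 strong distal peaks lacked a replicate 2 interval, and there replicate 1 had 55 peaks and replicate 2 had 19. Other loci looked at in the same way ran from 0 of 4 at Cbln3 and 1 of 4 at Mycn to 4 of 5 at Neurod1 and Pax6. Unlike at Zic4, replicate 2 had more peaks than replicate 1 there, 16 against 14 at Neurod1 and 41 against 29 at Pax6. Over the whole lists it had fewer, 122593 against 228203. A high share thus did not go with few replicate 2 peaks at every locus. The share over all strong distal peaks was 20.6%, and none of these counts was tested.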

How the data were processed

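DNase-seq peak and hotspot lists on mm10 were analysed for 1 group of 2 libraries. Peaks were called per library, per the text deposited by the authors. Which aligner and peak caller were used was not given in the sources used here. Each 150 bp peak carries a whole-number score deposited by the authors, called the deposited signal here, and each hotspot a −log10 q value as deposited, in which 100 is the strongest class. Sequencing depth is unknown. Peaks on the mitochondrial genome or unplaced sequence (215 and 221) and repeated positions (22 and 24) were left out.

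Distances, overlaps (1 bp), motif matches, shares with 95% Wilson intervals and differences with 95% Newcombe intervals were computed with Python 3.11.15, pandas 2.3.3, numpy 2.4.6 and pysam 0.24.0, checked on simulated data. Sequence came from the RefSeq copy of the assembly and gene models from GENCODE M21; all list symbols matched. A peak belonged to the protein-coding gene with the nearest TSS, and a promoter peak lay within 500 bp of a TSS of the gene. Consensus motifs allowed no mismatch.

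The members, motifs and lists were chosen with earlier results of these data known. Named are the 10 strongest members, the 10 genes nearest to the most (ties by summed signal), the leading genes (up to 3) of each list, the 5 largest groups, the 5 motifs with the highest and the 5 with the lowest difference, and 3 peaks on each side of the threshold. The CpG count was added to the planned ratio of observed to expected CpG. Alternatives were 2 other signal thresholds, a TSS distance over 2000 bp, replicate 2 hotspots ignored, no replicate 2 interval within 1000 bp, shared peaks weighted to the members' signal or signal and G+C classes, the central 100 bp for motifs, gene domains, 2 grouping distances and, added after seeing the data, shared peaks without CTCF matches.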

Additional observations from a re-analysis of the deposited data

How the results depend on the processing

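Across 37 results and 335 alternative values, 254 stayed within the limit set for them, 81 moved beyond it and 0 changed the sign of a called difference. The limit was the counting error for shares and differences, and a fixed fold change for plain counts. The results followed most closely (CAGATG, NFI, CTCF and the granule list) were picked from 30 motifs and 17 lists after their values were seen. With a signal of 60 or more there were 15037 peaks of replicate 1 alone (31.6%), with differences from the shared peaks of -0.924 CpG per peak, 12.7 points for CAGATG and -11.5 for CTCF, 56.5% for the granule list and 48.2% in groups. With 90 or more there were 1225 peaks (10.3%), -1.75 CpG, 19.4 and -10.8 points, 20% for the granule list and 13.2% in groups. Over 2000 bp from any TSS the share was 22.5%, with -0.771 CpG, -13.5 points for CTCF and 29.9% in groups. Ignoring replicate 2 hotspots gave 22.5%, -0.906 CpG and 13.9 points for CAGATG. Requiring no replicate 2 interval within 1000 bp gave 16.9%, -1.29 CpG, 16.8 points for CAGATG and 27.7% in groups. Weighting the shared peaks by signal gave -0.72 CpG and -13.9 points for CTCF, and by signal and G+C -13.3 points for CTCF. The central 100 bp gave 12.7 points for CAGATG, 11.1 for the NFI half-site and -11.7 for CTCF. Grouping within 5000 bp gave 14.3% and within 50000 bp 47.1%. Shared peaks without CTCF matches gave -1.28 CpG. Why these values moved was not tested, beyond the change in peaks or letters that each alternative makes. Leaving out a library was not possible, since the rule needs both. No paired analysis was possible because the labels give only 1 group. Unknown read depth limits any reading of a missing replicate 2 call.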
